A study of Mus musculus with 6 samples.

Results

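The nuclear genome encodes most subunits of the mitochondrial respiratory chain, and 84 of these genes were found among the 18019 gene symbols of the table. They were taken by symbol: Nduf followed by a, b, c, s or v and a digit (complex I, 38 genes), Sdha to Sdhd (complex II, 4 genes), Uqcr symbols and Cyc1 (complex III, 9 genes), Cox4 to Cox8 symbols (complex IV, 15 genes), Atp5 symbols (complex V, 17 genes) and Cycs, the gene of cytochrome c (1 gene). The symbol Cox5b-ps was dropped as a pseudogene, and no measured value entered the choice. All 6 libraries came from RAW264.7, an established mouse macrophage line, and all of the cells had been stimulated with LPS, the bacterial lipopolysaccharide that drives macrophages to an inflammatory state. In 3 libraries the cells had also received TPPU, an inhibitor of soluble epoxide hydrolase (an enzyme that turns epoxides of arachidonic acid into diols), and the other 3 were controls without TPPU. The labels give no dose or time for either agent, put all libraries in batch 1, and do not tell whether each library is a culture of its own; a p-value here reflects library-to-library spread that may be technical. The sample descriptions name the TPPU columns sh-LIS1, while sample titles, library names and the columns of the table all read TPPU; the grouping follows the latter.

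The respiratory chain sits in the inner mitochondrial membrane. Complexes I and II pass electrons from NADH and succinate to ubiquinone, complex III passes them on to cytochrome c and complex IV to oxygen, while complexes I, III and IV pump protons that drive ATP synthesis by complex V. In macrophages activated by LPS, ATP production is known to shift from oxidative phosphorylation towards glycolysis, and succinate oxidation at complex II is known to feed reactive oxygen production. Many of the nuclear genes carry sites for NRF1, for ETS factors such as GABPA and for YY1 close to their start, and the genes of complexes I, III, IV and V must be matched by subunits that the mitochondrial genome encodes.

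The promoters are shown because NRF1, GABPA and YY1 are the textbook regulators these genes share. RefSeq promoters of 300 bases (build GRCm38.p6) were found for 68 of the 84 genes, 73 promoters in all. The NRF1 core GCATGCG, searched on both strands, was in 16.4% of these promoters, in 6.89% of the 9820 promoters of all tested genes and in 3.58% of all 32851 promoters. The ETS letters CCGGAAG were in 23.3%, 19.5% and 8.86% of the same groups, and the YY1 letters AAGATGG in 15.1%, 7.73% and 6.34%. At least 1 of the 3 was in 45.2% of the promoters of the respiratory chain genes and in 30.5% of those of all tested genes. The SP1 letters GGGCGG were in 38.4% of the respiratory chain promoters and 63.9% of those of all tested genes, CCAAT in 41.1% against 37.8% and TATAAA in 11% against 6.71%. The following windows end at the base before the gene's start and stop where an annotated exon begins. They are those with a match in the window, 1 for each complex that had one, from the gene with the highest mean FPKM, and capitals mark the match. In Ndufa11 and Cycs the capitals hold the NRF1 core on both strands, overlapping in all but 1 base; in the others they hold the ETS letters on the opposite strand.
Ndufa11 (complex I, chr17:56717686-56717761, plus strand): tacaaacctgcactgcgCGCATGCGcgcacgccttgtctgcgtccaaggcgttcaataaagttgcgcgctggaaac
Sdhd (complex II, chr9:50603850-50603909, minus strand): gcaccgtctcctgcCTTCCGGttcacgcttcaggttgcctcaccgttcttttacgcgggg
Uqcrh (complex III, chr4:116075072-116075191, minus strand): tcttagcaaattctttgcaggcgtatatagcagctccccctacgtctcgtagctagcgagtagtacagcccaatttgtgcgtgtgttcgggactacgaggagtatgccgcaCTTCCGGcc
Cycs (cytochrome c, chr6:50566570-50566642, minus strand): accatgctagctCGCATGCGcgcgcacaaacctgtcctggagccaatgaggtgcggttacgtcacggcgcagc
Atp5e (complex V, chr2:174464106-174464225, minus strand): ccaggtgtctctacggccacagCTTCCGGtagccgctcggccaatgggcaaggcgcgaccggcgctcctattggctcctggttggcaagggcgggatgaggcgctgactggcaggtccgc
A match is a description of these letters and not a measured binding site. Of the 5 genes shown, Uqcrh was the only one whose TPPU libraries all lay above its control libraries.

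The values are FPKM, fragments per kilobase of exon and per M (mega) mapped fragments. The depth recovered from the low values was 17.7 to 22.8 M fragments per library (M as in the unit of FPKM), so that 1 fragment on 1 kb of exon was worth 0.0439 to 0.0565 FPKM, and a listed 0 allows up to 3 fragments, 0.132 to 0.170 FPKM for 1 kb; intervals of this kind cover counting error only. Macrophage markers were present, with 9 of 10 at 1 FPKM or more in every library and a summed level of 1943 to 2320 FPKM in controls and 2057 to 2174 FPKM with TPPU; Mertk, listed at 0 or near it, was the exception. Marker lists of fibroblasts, chondrocytes, T cells, B cells, epithelium, endothelium, striated muscle and germ cells summed to at most 7.96 FPKM in any library. The 4 hepatocyte markers (Alb, Apoa1, Ttr and Serpina1a) were at 1 FPKM or more in every library, and their sum was 33.5 to 69.2 FPKM in controls and 78.3 to 144 FPKM with TPPU, without overlap; their part in the results below was not tested. Fewer cells of a type and less RNA per cell cannot be told apart in these bulk libraries. Transcripts of the mitochondrial genome held 1.46%, 1.73% and 0.371% of all FPKM in controls 1 to 3 and 0.914%, 1.54% and 1.85% in TPPU 1 to 3, so control 3 and TPPU 1 stand apart. In every library most of this share was the mitochondrial gene mt-Co1.

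Most respiratory chain genes were well expressed, and 78 of the 84 reached 1 FPKM in at least 3 libraries and were tested; 77 of the 84 reached it in all 6, and none passed through 1 group alone. Recovered fragments per tested gene and library had a median of 794.5 and a minimum of 18, in Ndufb1, and 8 genes had under 100 fragments in at least 1 library. Per kilobase of exon, subunits of the catalytic F1 part of ATP synthase led. Atp5b (beta) had a mean over the 6 libraries of 302 FPKM and Atp5a1 (alpha) one of 290 FPKM. Cox7a2l, described as a factor that joins complexes III and IV into supercomplexes, followed at 183 FPKM. Whether it does so in these cells was not tested. Next came the membrane anchor Sdhd at 155, Cox6a1 at 128 and Cox4i1 at 122 FPKM. Among the tested genes of 1 complex, tissue isoforms and Cox7a2l included, the highest mean was 63.2 times the lowest in complex V, 21.9 times in complex IV, 20.2 times in complex III and 3.34 times in complex II.

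**Figure D1:**
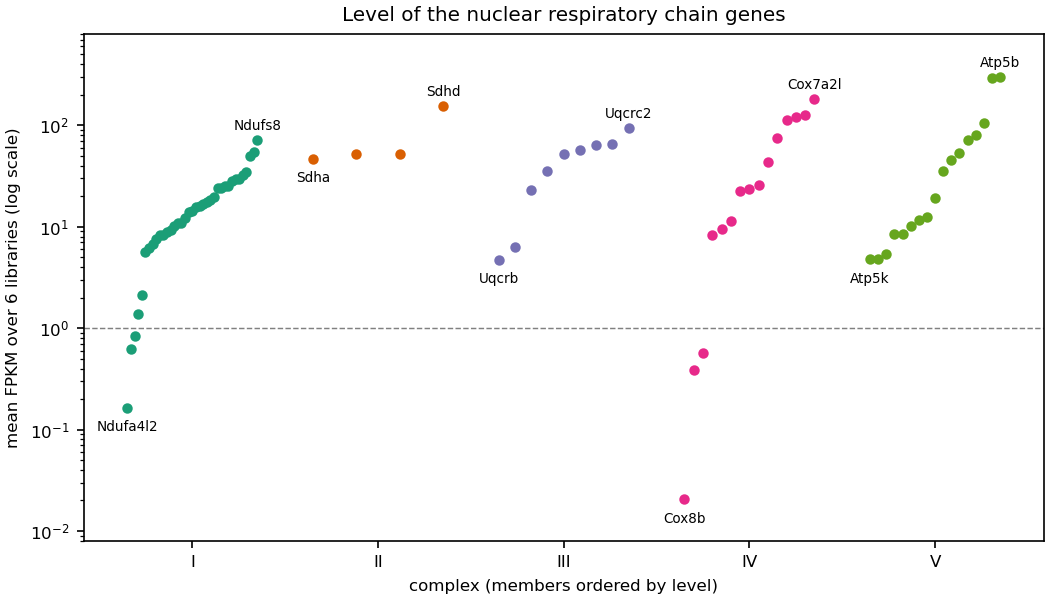
Mean FPKM over the 6 libraries (log axis) of 82 genes of complexes I to V; each point is 1 gene and the dashed line marks 1 FPKM. Complex V holds the highest levels, led by Atp5b at 302 FPKM, and the lowest tested gene is Ndufb1 of complex I at 1.37 FPKM.

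The length the FPKM is divided by bears on this order. The lengths that give whole fragments are those of the union of all annotated exons, which in the respiratory chain genes were a median of 1.44 times as long as the longest coding transcript and up to 11.8 times in Atp5l, a subunit of the ATP synthase membrane part. Atp5l stood at rank 54 by FPKM and at rank 10 when its fragments were divided by coding transcript length. Over the 78 genes the ranks by both lengths were close (Spearman's rho 0.885, a description across genes that share their libraries).

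Muscle and other tissue isoforms were near the floor, and each isoform pair was led by the form found in most tissues. Cox4i1 held 99.2 to 99.8% of the summed FPKM of the Cox4i1 and Cox4i2 pair across the 6 libraries, Cox8a 99.9 to 100% of the Cox8 pair and Cox7a2 97.2 to 99.8% of the Cox7a1 and Cox7a2 pair. Ndufa4, a subunit named for complex I and later assigned to complex IV, held 98.1 to 100% of the sum with Ndufa4l2, its hypoxia-induced relative. Cox6a2, the heart and muscle form of Cox6a1, was the exception. It was at 6.57, 6.53 and 10.4 FPKM in controls and 10.8, 8.06 and 7.69 FPKM with TPPU, 4.97 to 7.54% of its pair, while the 5 striated muscle markers summed to 0.601 to 1.35 FPKM. Its exons overlap those of Itgad on the opposite strand over 10.3% of their length.

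The ring of subunit c in complex V is encoded by 3 genes with the same mature protein, and their shares of the summed FPKM were 61.4 to 72.3% for Atp5g2, 20.9 to 30.6% for Atp5g3 and 6.58 to 9.18% for Atp5g1. The order of the 3 was the same in every library, and the groups overlapped in each share. Dividing by coding transcript length left Atp5g2 first, at 57.6 to 69.6%, and lowered Atp5g1 to 2.89 to 4.14%.

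The 6 genes below the filter were Ndufa4l2, Ndufb2, Ndufb8, Cox4i2, Cox7a1 and Cox8b. Cox8b, a muscle form, had 1 fragment in control 2 and 0 in the others. Ndufa4l2 had 0, 3 and 0 fragments in controls and 13, 1 and 4 with TPPU. Cox7a1, the muscle form of Cox7a, had 1, 1 and 4 fragments in controls and 1, 5 and 14 with TPPU, and Cox4i2, the form of lung and low oxygen, had 6, 14 and 3 against 3, 13 and 18. These counts overlap between the groups in all 4 isoforms. Ndufb2 and Ndufb8 are complex I subunits without a tissue form, at 0.468 to 0.742 FPKM and 0.544 to 1.47 FPKM, and both have exons that overlap another gene on the same strand. Genes of this family have processed pseudogenes, and how the authors' counting treated reads that match several places is not given in the sources used here.

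The comparison of TPPU with control asked which of these genes differ when soluble epoxide hydrolase is inhibited in LPS-stimulated macrophages. No respiratory chain gene passed the test (limma on log2(FPKM + 1), Benjamini-Hochberg over 9728 genes, threshold 0.05), and no other gene did: 0 were higher and 0 lower (0.0%). The smallest adjusted p by limma was 0.397 among the respiratory chain genes, for Ndufb11, and 0.116 over all genes. At an unadjusted p under 0.05, 10 of the 78 were higher and 0 lower, where all tested genes had 4.19% higher and 3.7% lower. The direction was nonetheless uneven: 72 of 78 had a positive log2 change, against 54.4% of all tested genes. Their median was 0.14, with a range from -0.27 (Ndufa8) to 0.74 (Ndufa12), against 0.02 over all tested genes; log2 changes here are on the log2(FPKM + 1) scale, which understates changes of low genes.

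In 13 genes (16.7% of 78) all TPPU libraries lay above all control libraries, and in 0 below, against 7.48% above and 7.88% below over all tested genes. They included Ndufb11, Ndufb4, Ndufb1, Ndufa12, Ndufs6 and Ndufs3 in complex I, Uqcrh and Uqcrq in complex III, Cox6b1 and Cox7b in complex IV, and Atp5pb and Atp5h in complex V. Summed over the 84 genes, the level was 3237 ± 53.7 FPKM in controls and 3508 ± 153 FPKM with TPPU (SD, n = 3 each), a ratio of 1.08, and the genes held 0.697 to 0.787% of each library's fragments. The ratio of sums was 1.09 for complex I, 1.03 for complex II, 1.15 for complex III, 1.10 for complex IV and 1.06 for complex V, beside 1.01 for all tested genes.

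**Figure D2:**
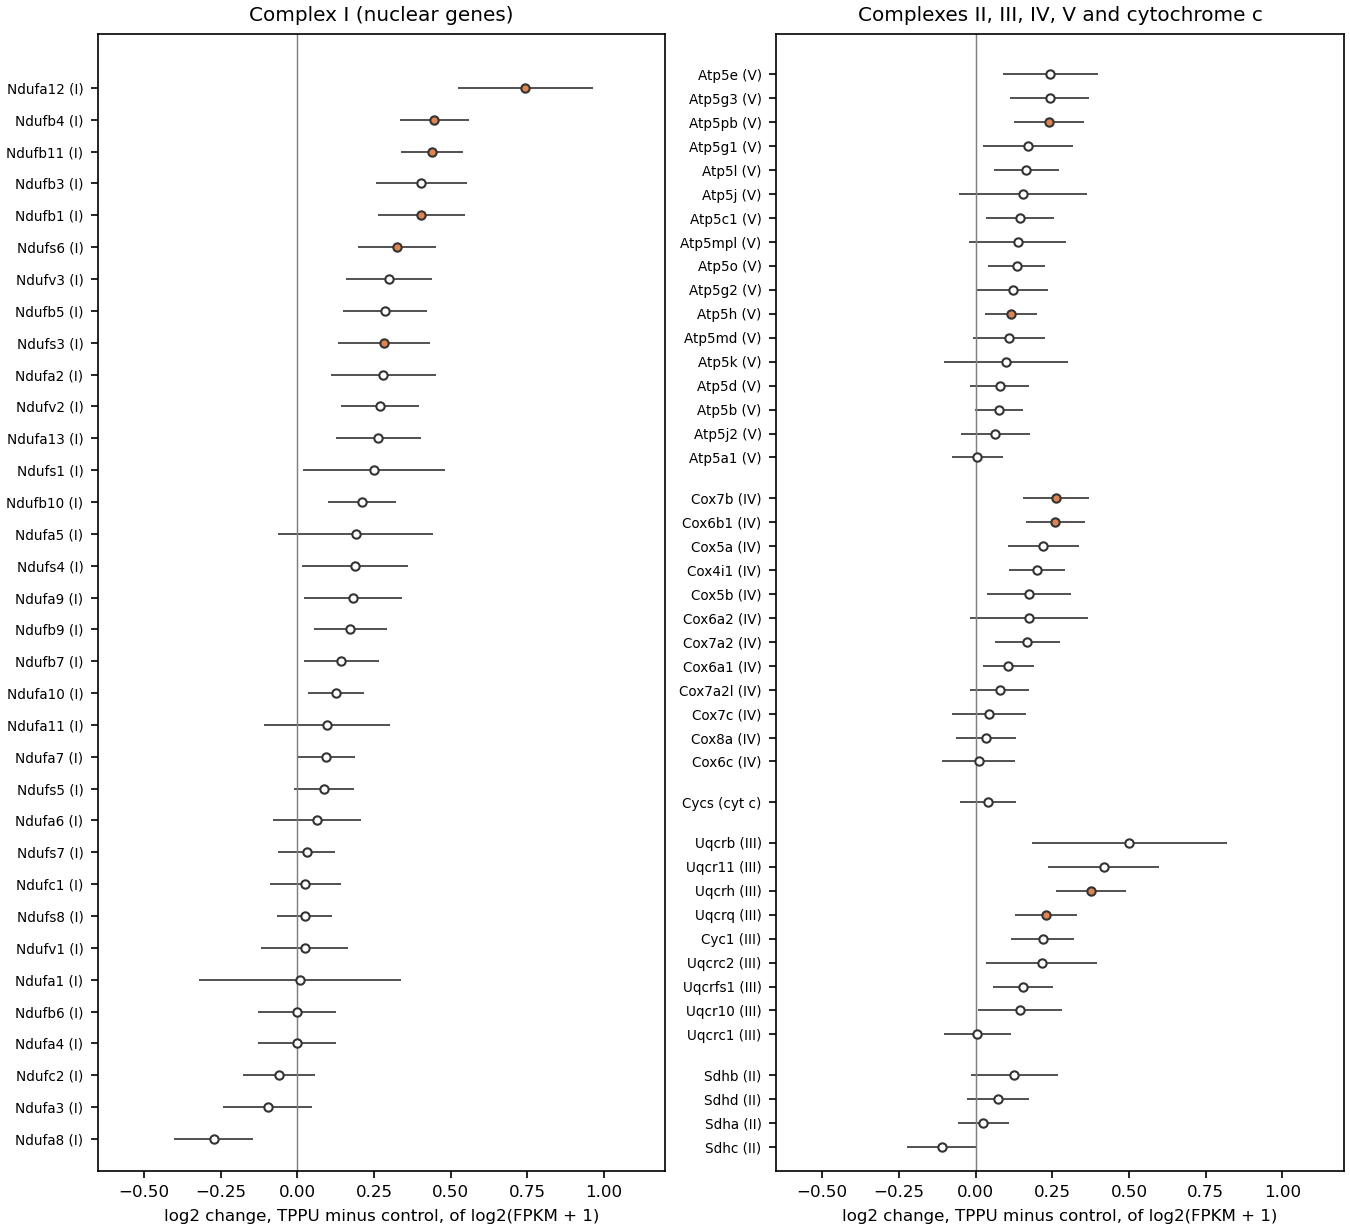
Log2 change, TPPU minus control, on the log2(FPKM + 1) scale with its limma standard error for 77 of the tested genes, grouped by complex; orange marks genes whose 3 TPPU values all lie above the 3 control values. Points lie mostly right of 0, from -0.27 (Ndufa8) to 0.74 (Ndufa12), and no gene passed the test.

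Complex I, the NADH dehydrogenase, was the largest group and had the widest range of changes. Of its 35 tested genes 30 had positive changes, with a median of 0.17; with the length trend removed, 22 were positive, with a median of 0.10. The 7 core subunits, which carry the flavin and the iron-sulfur clusters, had a median of 0.10, and the 28 accessory subunits 0.18; by symbol series the median was 0.29 for 9 Ndufb genes, 0.27 for 3 Ndufv genes, 0.15 for 8 Ndufs genes, 0.10 for 13 Ndufa genes and -0.02 for 2 Ndufc genes. The Ndufb products belong to the membrane arm that pumps protons.

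Ndufb11, at chrX:20615326-20617619 (mm10) and an accessory subunit of the membrane arm, was at 25.03, 24.2 and 21.6 FPKM in controls and 34.95, 30.3 and 31.7 FPKM with TPPU. Every TPPU value lies well above the highest control. Its log2 change was 0.44 (SE 0.10, limma adjusted p = 0.397), and of its exon length 12.9% overlaps Rbm10 on the opposite strand. Ndufb4, in the same arm, was at 6.79, 6.61 and 7.10 FPKM against 10.7, 8.49 and 9.96 FPKM, again without overlap and with no exon shared with another gene (log2 change 0.45, SE 0.11, limma adjusted p = 0.402). Ndufb1 matched an entry that GENCODE names Ndufb1-ps and types as a noncoding RNA of a bidirectional promoter, so its values may not be those of a subunit mRNA. It was the lowest tested gene, at 1.08, 1.23 and 0.817 FPKM against 1.86, 1.60 and 1.63 FPKM, which are 22, 32 and 18 fragments against 39, 42 and 40. Its spread between libraries was within counting noise, as in 2 other genes (Ndufa7 and Ndufs5), and 12.7% of its exon length overlaps Cpsf2 on the opposite strand.

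Ndufa12, an accessory subunit of the peripheral arm at chr10:94198720-94221443, had the largest positive change. It was at 5.30, 9.09 and 9.81 FPKM in controls and 14.1, 16.5 and 11.2 FPKM with TPPU, or 147, 321 and 294 fragments against 402, 590 and 374. Control 1 is the lowest library, and TPPU 3 is the TPPU library nearest to the controls. The log2 change was 0.74 (SE 0.22, limma adjusted p = 0.492). Sample quality weights in limma gave control 3 the lowest weight (0.191) and control 1 the highest (3.84). With them Ndufa12 passed the threshold (limma adjusted p = 0.0267), as did Ndufb11 (0.0491) and the peripheral arm subunit Ndufv3 (0.0368), and no other respiratory chain gene. In that setting 89 of all 9728 tested genes passed as higher and 80 as lower, these 3 included.

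Ndufs3, a core subunit of the peripheral arm near the ubiquinone site, was at 24.2, 24.1 and 16.6 FPKM in controls and 28.2, 25.8 and 24.4 FPKM with TPPU; control 3 is the low one, and the change of 0.28 came to 0.11 without it. Ndufs6, an accessory subunit that carries zinc, was at 4.78, 6.38 and 4.90 FPKM against 7.34, 6.84 and 6.56 FPKM (log2 change 0.32, SE 0.13).

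The 5 complex I genes with negative changes were Ndufa8, Ndufa3, Ndufc2, Ndufa4 and Ndufb6. Ndufa8, a membrane arm subunit facing the intermembrane space, had the largest of them, at 57.1, 56.8 and 63.3 FPKM in controls and 57.7, 41.2 and 48.5 FPKM with TPPU. TPPU 1 lies within the control range, and the log2 change was -0.27 (SE 0.13, limma adjusted p = 0.630). Ndufa4 was at 37.9, 32.3 and 27.5 FPKM against 34.4, 29.7 and 32.9 FPKM, and its log2 change was under 0.01 in size. Ndufa1, named here after its values were seen, was at 20.4, 6.80 and 17.4 FPKM with TPPU and between 12.4 and 14.4 FPKM in controls.

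Complex II, succinate dehydrogenase, is the only complex encoded entirely in the nucleus, and its 4 genes had the lowest median change of the complexes, 0.05. With the length trend removed, the median was 0.02. The flavoprotein Sdha was at 44.7, 45.2 and 48.5 FPKM in controls and 48.3, 46.2 and 46.3 FPKM with TPPU, with a log2 change of 0.03 (SE 0.08). The iron-sulfur subunit Sdhb was at 42.3, 47.1 and 62.8 FPKM against 55.4, 55.5 and 53.3 FPKM. Control 3 is above every other library there, and the change was 0.13 with it and 0.29 without it. Of the membrane anchors, Sdhc was at 51.6, 50.1 and 59.6 FPKM against 56.3, 45.9 and 47.2 FPKM, with a log2 change of -0.11 (SE 0.11). Sdhd was at 147, 158 and 149 FPKM against 179, 143 and 158 FPKM, with a log2 change of 0.07 (SE 0.10); TPPU 1 was highest, and without it the change was -0.01. The groups overlapped in all 4 genes.

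**Figure D3:**
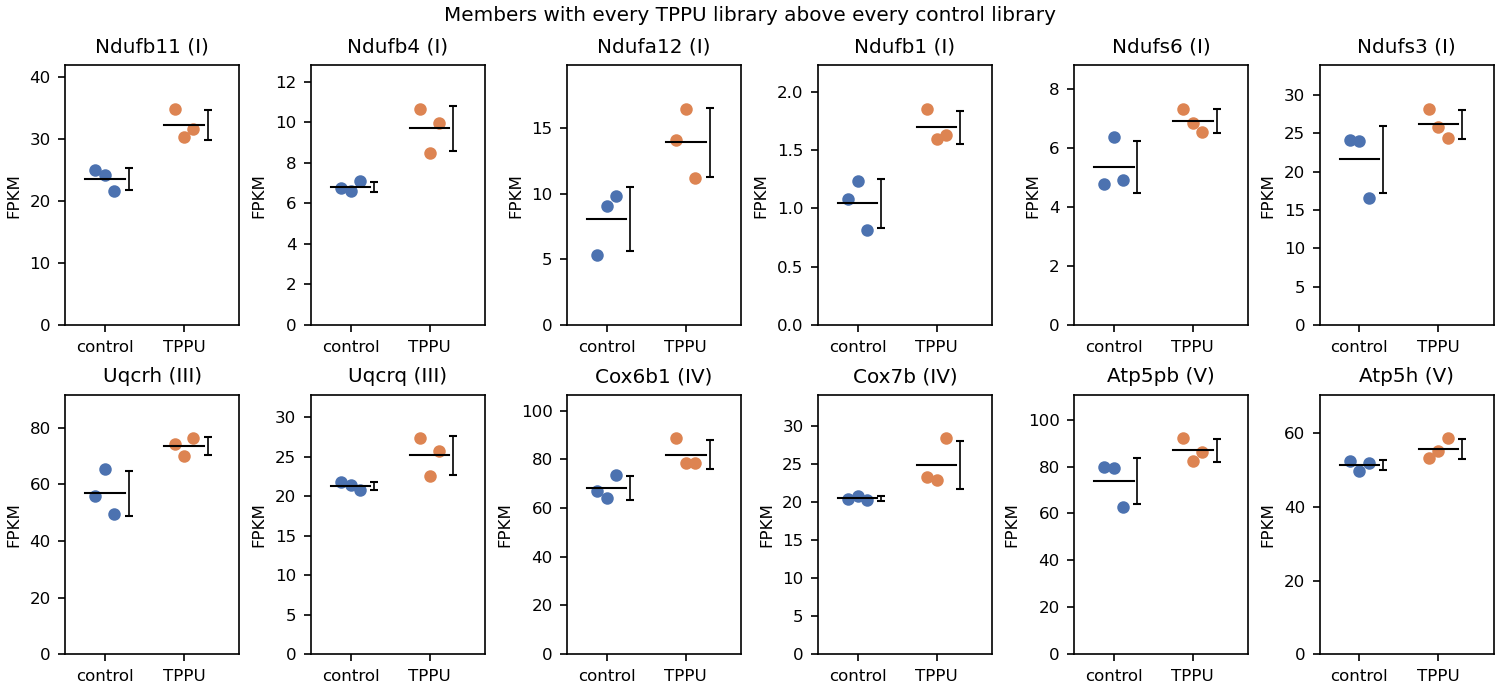
FPKM in each library of 12 genes whose TPPU values (n = 3) all lie above their control values (n = 3), with the group mean as a line and the SD as a bar; each panel has its own axis. In Ndufb11 the lowest TPPU value is 30.3 and the highest control 25.03 FPKM, while in Ndufs3 they nearly meet at 24.4 and 24.2 FPKM.

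Complex III, the cytochrome bc1 complex, had the highest median change, 0.22, and all 9 genes were positive. With the length trend removed, 8 of the 9 were positive, with a median of 0.18. In 2 of the 9 (22.2%) all TPPU libraries lay above all controls, beside 7.48% of all tested genes. Uqcrh, the hinge protein that binds cytochrome c1, was at 55.7, 65.3 and 49.4 FPKM in controls and 74.2, 69.9 and 76.4 FPKM with TPPU, and its log2 change was 0.38 (SE 0.11, limma adjusted p = 0.514). The small membrane subunit Uqcrq was at 21.8, 21.4 and 20.8 FPKM against 27.4, 22.5 and 25.7 FPKM (log2 change 0.23, SE 0.10). Both were above every control in each of the 3 TPPU libraries. Cyc1, which carries the haem that reduces cytochrome c, was at 50.2, 49.6 and 59.0 FPKM against 65.5, 61.4 and 58.1 FPKM; TPPU 3 falls below control 3, and the log2 change was 0.22 (SE 0.10).

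Uqcrb, which lines the ubiquinone site, had the largest change of complex III, 0.50, with the widest error (SE 0.32). It was at 2.90, 6.74 and 2.09 FPKM in controls and 4.07, 5.91 and 6.56 FPKM with TPPU, so control 2 was above all TPPU libraries. Without control 3 its change was 0.22, below that of Uqcr11 (0.41), Cyc1 (0.30) and Uqcrh (0.28). The core protein Uqcrc2, highest of the complex by FPKM but below Uqcrh per coding transcript length, was at 97.0, 107 and 63.0 FPKM against 96.2, 109 and 98.6 FPKM. Control 3 is far below the rest, and the log2 change was 0.22 with it and -0.01 without it. Of its exon length 19.7% overlaps Pdzd9 on the opposite strand.

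Cycs, the soluble carrier between complexes III and IV, was at 37.4, 36.5 and 36.6 FPKM in controls and 40.5, 34.9 and 38.6 FPKM with TPPU. The groups overlap, and the log2 change was 0.04 (SE 0.09).

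Complex IV, cytochrome c oxidase, takes its catalytic core from the mitochondrial genome, and the nuclear genes encode subunits around it. All 12 tested genes were positive, with a median of 0.17; with each library's trend on transcript length removed, 8 of 12 were positive, with a median of 0.06. Cox6b1, which faces the intermembrane space and holds the dimer together, was at 66.8, 64.3 and 73.6 FPKM in controls and 88.9, 78.4 and 78.5 FPKM with TPPU, and its log2 change was 0.26 (SE 0.10, limma adjusted p = 0.564). Cox7b was at 20.35, 20.8 and 20.2 FPKM against 23.2, 22.8 and 28.4 FPKM, and TPPU 3 sets the mean (log2 change 0.26, SE 0.11). Cox4i1, the subunit through which ATP inhibits the enzyme, was at 105, 113 and 122 FPKM against 133, 122 and 136 FPKM; TPPU 2 and control 3 coincide, and the log2 change was 0.20 (SE 0.09).

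Cox7a2l, highest of the complex by FPKM but below Cox4i1 per coding transcript length, was at 165, 174 and 194 FPKM in controls and 204, 179 and 180 FPKM with TPPU, and Cox6a1 at 116, 125 and 127 FPKM against 133, 125 and 138 FPKM. Cox7a2 was at 40.7, 39.4 and 43.1 FPKM against 52.3, 45.0 and 42.0 FPKM, and Cox8a at 112, 111 and 111 FPKM against 116, 101 and 126 FPKM. The groups overlapped in all 4, and their log2 changes were 0.03 (Cox8a) to 0.17 (Cox7a2).

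Complex V, the ATP synthase, had 17 tested genes, all positive, with a median of 0.13 and none at an unadjusted p under 0.05; with the length trend removed, 14 of 17 were positive, with a median of 0.04. The 5 genes of the catalytic F1 part had a median of 0.08 and the other 12 of 0.14. Atp5b was at 297, 291 and 294 FPKM in controls and 328, 292 and 311 FPKM with TPPU (log2 change 0.08, SE 0.08). The groups did not overlap in 2 of the 17 (11.8%), both with TPPU above, beside 7.48% of all tested genes. Both belong to the peripheral stalk, which holds the catalytic head still while the rotor turns. In other genes of the stalk the groups overlapped. Atp5pb (subunit b) was at 79.8, 79.2 and 62.6 FPKM against 92.3, 82.2 and 86.1 FPKM, a log2 change of 0.24 (SE 0.11) that was 0.12 without control 3. Atp5h (subunit d) was at 52.5, 49.7 and 51.9 FPKM against 53.3, 55.1 and 58.8 FPKM, a log2 change of 0.11 (SE 0.08). The largest change of the complex was that of Atp5e, the epsilon subunit of F1, at 12.01, 12.9 and 9.18 FPKM against 14.4, 11.3 and 15.2 FPKM; TPPU 2 lies below 2 of the controls (log2 change 0.24, SE 0.16). Without control 3 its change was 0.11, below the 0.27 of Atp5k (42 to 70 fragments per library) and the 0.23 of Atp5g2. With the length trend removed it was 0.10, below the 0.20 of Atp5pb.

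The TPPU libraries did not contribute alike. Relative to each gene's mean, the median log2 deviation of the 78 genes was -0.10, -0.06 and -0.05 in controls 1 to 3 and 0.12, 0.01 and 0.10 in TPPU 1 to 3. TPPU 1 was the highest library for 30 genes and TPPU 3 for 26, while TPPU 2 was highest for 7 and lowest for 11. Control 3 was lowest for 26 genes and also highest for 13. Without control 3 the median change was 0.14 and 70 of the 78 were positive. Without TPPU 1 they were 0.11 and 62, and without both of these libraries 0.12 and 68. Under the other scalings between libraries 68 to 72 of the 78 were positive.

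**Figure D4:**
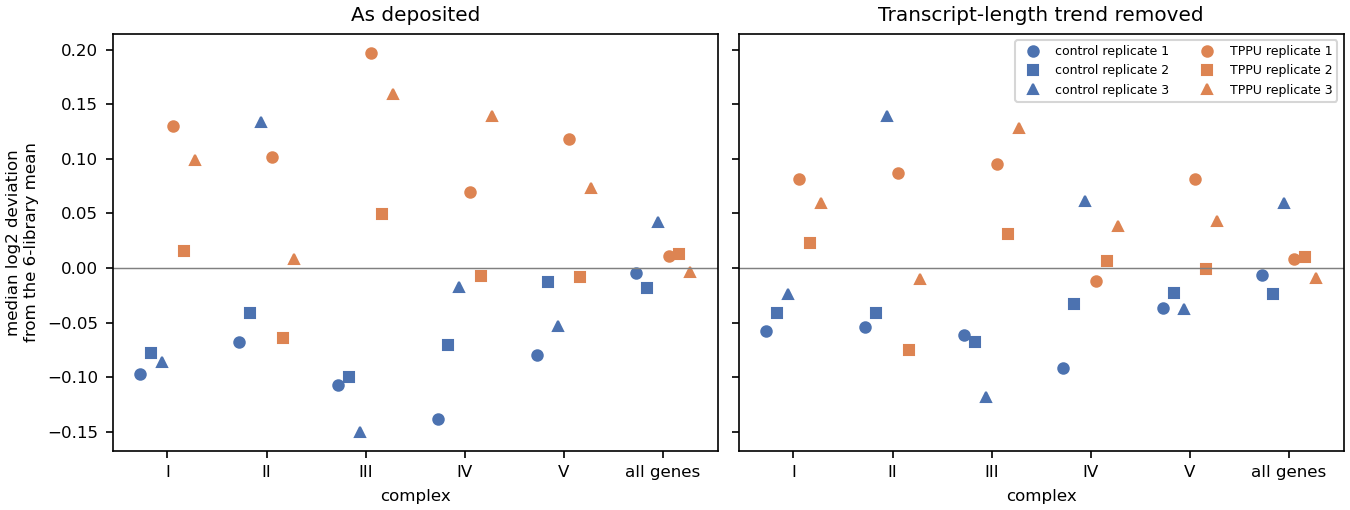
Median log2 deviation of each complex's tested genes from their mean over the 6 libraries, as deposited (left) and after removing each library's trend with transcript length (right), with all tested genes beside them; each point is 1 library. As deposited, complex III has TPPU 1 at 0.20, TPPU 2 at 0.05 and TPPU 3 at 0.16 and the controls between -0.15 and -0.10, while complex II has control 3 highest at 0.13.

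Transcript length and GC content moved with the comparison over all tested genes. Respiratory chain transcripts are short, with a median of 870 bases against 2997 over all tested genes. Over 9636 tested genes shorter transcripts had more positive changes (Spearman's rho -0.165, across genes, which share their libraries), and rho with GC content was -0.277. Among the 78 respiratory chain genes rho was -0.0463 with length and -0.01 with GC content. It was 0.242 with length after the length trend was removed. Single libraries differed more in GC content. Over the 9636 genes, rho of a library's deviation with GC content was 0.606 in control 3 and -0.461 in control 2. In the other libraries it ranged from -0.424 (TPPU 3) to 0.256 (TPPU 1). Other genes of at most 600 bases had a median change of 0.10 (n = 172), those of 600 to 1000 bases 0.08 (n = 485), and those of over 4000 bases -0.01. The respiratory chain genes of the same lengths had medians of 0.13 (14 genes, 13 positive) and 0.15 (31 genes, 27 positive). Between 1000 and 2000 bases they were at 0.18 (25 of 25 positive), where 1986 other genes were at 0.05. Between 2000 and 4000 bases 7 of them were at 0.04 (6 positive) and the other genes at 0.02. Among other genes the positive share was 62.8% up to 600 bases, then 68.0% up to 1000, 61.8% up to 2000 and 53.7% up to 4000.

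With each library's length trend removed, the median of the 78 genes was 0.06 with 56 positive, where 52.0% of all tested genes were positive. On that scale 7 of the 78 genes lay wholly above the controls, beside 6.74% of all tested genes. In 1 of the 78 they lay wholly below, and that share was not computed over all tested genes. With each library's GC trend removed, the median was 0.15 with 67 positive, where 51.6% of all tested genes were positive. The part of length in the difference was not tested beyond these values.

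**Figure D5:**
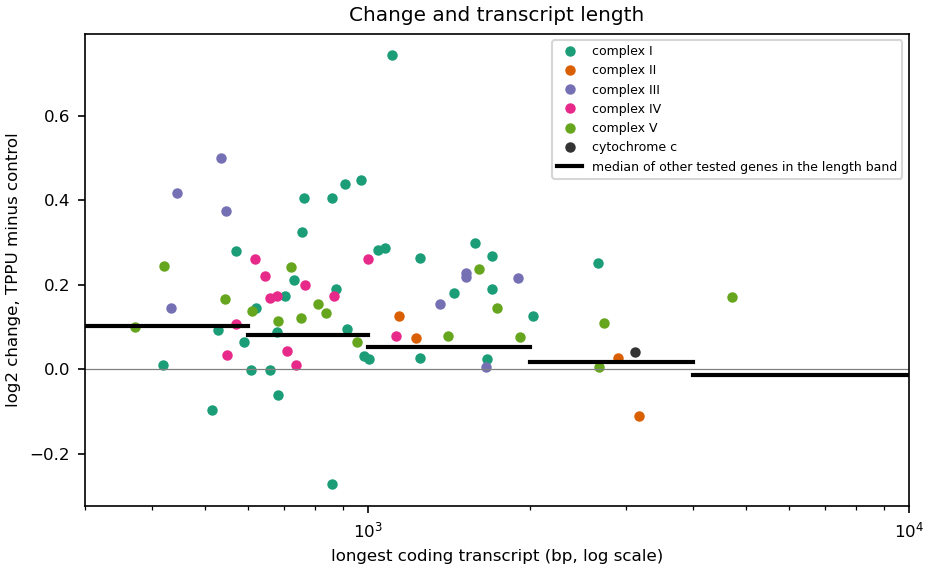
Log2 change, TPPU minus control, against transcript length (log axis) for 77 of the tested genes, with the median of all other tested genes in each length band as a line. Genes of the respiratory chain between 1000 and 2000 bases have a median of 0.18 beside 0.05 for the others; below 600 bases the medians are 0.13 and 0.10.

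The subunits that the mitochondrial genome encodes were split in direction. Of the 11 tested, 6 were positive, with a median of 0.01 that was -0.21 without control 3. mt-Nd6 was at 47.7, 60.3 and 80.2 FPKM in controls and 35.4, 45.0 and 56.2 FPKM with TPPU, and mt-Co2 at 7.36, 7.53 and 1.38 FPKM against 6.82, 9.55 and 9.16 FPKM, where control 3 is far below the rest. For complex IV, the mitochondrial genes summed to 3812, 4394 and 789 FPKM in controls and 2428, 4076 and 4847 FPKM with TPPU. Its nuclear genes stayed between 702 and 831 FPKM. Nearly all of the mitochondrial sum was mt-Co1, at 3803, 4383 and 784 FPKM against 2418, 4063 and 4833 FPKM. In control 3, mt-Co3 lay within the range of the other libraries, at 3.67 FPKM. There mt-Nd2, like mt-Nd6, was at its highest, 27.8 FPKM. The genes mt-Co1, mt-Co3 and mt-Nd2 are named here after their values were seen. These libraries were made from RNA selected by its poly(A) tail, which is short on mitochondrial mRNAs and known to be missing from mt-Nd6.

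Neighbouring mitochondrial pathways held no gene that passed the test in either direction, and 0 of their tested genes lay wholly below the controls. Of 25 tested genes of mitochondrial import and cristae 23 were positive, with a median of 0.18, and 2 lay wholly above the controls. Beside this and the lists that follow, all tested genes had 54.4% positive, 7.48% wholly above and 7.88% wholly below. Tomm5, of the outer membrane translocase, was at 15.8, 16.8 and 18.5 FPKM in controls and 21.7, 22.1 and 26.05 FPKM with TPPU, and Timm13, an intermembrane space chaperone, at 12.1, 11.7 and 13.8 FPKM against 17.7, 13.5 and 16.8 FPKM. The list of the tricarboxylic acid cycle also holds genes of pyruvate dehydrogenase, and Mdh1, whose product is cytosolic. Of its 18 genes 15 were positive (median 0.13), and 7 lay wholly above the controls, including Mdh1 and genes of pyruvate dehydrogenase. Suclg2, a subunit of succinyl-CoA ligase, was at 16.35, 16.9 and 14.5 FPKM against 20.6, 20.3 and 21.2 FPKM. The cytosolic malate dehydrogenase Mdh1 was at 80.0, 81.0 and 93.3 FPKM against 104, 103 and 97.8 FPKM. The mitochondrial form Mdh2, named here after its values were seen, overlapped between the groups (log2 change 0.03).

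Of 16 genes of ubiquinone synthesis and other electron donors 14 were positive (median 0.15, 3 wholly above), with Coq2 at 13.7, 12.7 and 15.2 FPKM against 17.5, 15.9 and 15.9 FPKM and Coq6 overlapping between the groups. Of 12 inner membrane carriers 10 were positive (median 0.10, 2 wholly above). The phosphate carrier Slc25a3, which feeds ATP synthase, was at 91.3, 88.3 and 65.5 FPKM against 96.5, 105 and 95.7 FPKM, and Slc25a10, the dicarboxylate carrier, at 8.71, 7.76 and 7.46 FPKM against 10.9, 9.42 and 8.19 FPKM.

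Assembly factors build the complexes but do not stay in them. Of 46 tested, 30 were positive, with a median of 0.05, and 8 lay wholly above the controls, where all tested genes had 7.48%. Sdhaf4, an assembly factor of complex II, was at 1.62, 1.63 and 1.44 FPKM in controls and 3.08, 3.06 and 4.96 FPKM with TPPU. Its log2 change was 0.85 (SE 0.17), with a limma adjusted p of 0.339. The subunits of complex II itself had a median of 0.05. Uqcc2, which helps to make cytochrome b of complex III, was at 8.31, 9.60 and 9.38 FPKM against 14.8, 10.95 and 14.8 FPKM (log2 change 0.51, SE 0.14, limma adjusted p = 0.424). Of 16 regulators of mitochondrial biogenesis 9 were positive, with a median of 0.09 and none wholly above. The promoter regulators Nrf1, Yy1 and Gabpa, named here after their values were seen, had log2 changes of -0.07, -0.13 and 0.10. The groups overlapped in each of them. Tfb1m, a methyltransferase of mitochondrial ribosomal RNA, was at 3.59, 4.455 and 2.93 FPKM against 4.05, 5.29 and 5.04 FPKM, and the mitochondrial transcription factor Tfb2m at 5.30, 6.22 and 3.04 FPKM against 6.64, 5.77 and 8.06 FPKM.

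Exon overlap limits some of these values. Of the 84 genes 53 share no exon base with another annotated gene, 28 share some with a gene on the opposite strand and 5 with one on the same strand. The largest overlaps on the opposite strand were those of Ndufb6 (39.0% of its exon length), Atp5o (35.6%) and Ndufa13 (29.98%). The library preparation marked strand, but whether the counting used it is not given in the sources used here, and without strand the reads of such pairs cannot be told apart.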

How the data were processed

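Poly(A)-selected, strand-marked RNA-seq libraries of 6 RAW264.7 samples (3 control, 3 TPPU) were deposited by the authors as 1 table of FPKM values per gene; the build was mm10, per the submitters' processing notes, while aligner, annotation and counter are not stated there. FPKM values multiplied by the union of GENCODE M21 exons gave whole fragments (within 0.1) for all 504 values of the 84 genes and for 96.8 to 97.0% of values of genes with several transcripts (20% by chance), which gave the depths of 17.7 to 22.8 M fragments. A gene entered the test if 3 or more libraries reached 1 FPKM. The test was limma 3.58.1 under R 4.3.3, two-sided, on log2(FPKM + 1), its prior following the mean-variance trend, with Benjamini-Hochberg adjustment over 9728 genes and a threshold of 0.05. FPKM is not a count, so no count model was the main test. The limma step was tested on simulated data.

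Alternatives covered the pseudocount, filter, scaling, limma prior, sample weights, length and GC trends (loess, span 0.3), the replicate block and leaving out libraries; voom on recovered fragments and leaving out control 3 with TPPU 1 were added after seeing the data. Genes named were the extremes of each complex, its highest gene, all genes without overlap between groups, complex II, Cyc1, Cycs, the isoform sets, those below the filter, and the 2 of smallest p per pathway list. The genes, the lists and the rule were chosen with earlier results of these data known. Symbols of Ndufb1, Atp5md and Atp5pb were matched to the annotation through RefSeq synonyms (for Ndufb1 a noncoding entry, Ndufb1-ps), and Atp5o, with a duplicate entry, by the length that gave whole fragments. The columns were assigned by sample title and library name. Python 3.11.15, pandas 2.3.3 and scipy 1.17.1 were used. Counts and medians cover all tested genes, and 1 gene is not reported here by name.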

Additional observations from a re-analysis of the deposited data

How the results depend on the processing

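The count of all genes past the threshold was 89 higher and 80 lower with sample quality weights, 2 and 8 with the GC trend removed, 29 and 10 without the 2 libraries lowest in mitochondrial transcripts (control 3 and TPPU 1), and 0 to 5 higher and 0 to 1 lower when 1 library was left out, with 5 and 1 reached without TPPU 1; the other settings gave 0. Of the respiratory chain genes 3 passed with quality weights and 0 in every other setting. The labels number the libraries 1 to 3 in both groups, and same-numbered libraries had deviations correlated at -0.301, 0.154 and -0.399. These values show no pairing by number but cannot exclude it. A replicate block gave 0 calls. With each number present in both groups, the block cannot move a gene's change, so the unchanged median of 0.145 was fixed in advance.

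With the length trend removed, alone or with the replicate block, the medians were 0.103 for complex I, 0.0632 for complex IV, 0.0437 for complex V and 0.0625 for all 78 genes; complex I was 0.105 with quality weights. Without control 3 and TPPU 1 together they were 0.121 for complex I and 0.153 for complex III, and the median log2 change of tested members, complex V, was 0.0796. Leaving out 1 library at a time gave 0.113 to 0.177 for complex I, -0.0034 to 0.0764 for complex II, 0.182 to 0.299 for complex III, 0.0918 to 0.175 for complex IV, 0.0966 to 0.166 for complex V and 0.111 to 0.162 for all 78 genes. The cause of these shifts was not tested.

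Of 814 values of 34 named genes over 24 settings, 795 kept direction and side of the threshold and 2 newly passed it. The other 17 had the opposite sign, in 6 genes, all but Uqcrc2 with a change under the median of the 78. Settings that only change the limma prior or add the replicate block cannot alter a direction, and they are counted here. The log2 change of Cox6a1 was -0.0142 with the length trend removed, with or without the replicate block. The log2 change of Cox8a was -0.0155 with quality weights, -0.0892 with the length trend removed, with or without the replicate block, and -0.0365 to 0.121 with 1 library left out. The log2 change of Cycs was -0.0112 with quality weights, -0.0545 with the GC trend removed, with or without the replicate block, -0.0101 without control 3 and TPPU 1, and -0.0057 to 0.0989 with 1 library left out. The log2 change of Ndufa4 was 0.0012 after quantile normalization and -0.113 to 0.110 with 1 library left out. The log2 change of Sdhd was -0.0215 without control 3 and TPPU 1 and -0.0111 to 0.150 with 1 left out, and the log2 change of Uqcrc2 was -0.0121 to 0.364, negative without control 3. Depth limits Ndufb1 most among the tested genes, at 18 to 42 fragments, and below the filter Ndufa4l2, Cox4i2, Cox7a1 and Cox8b. Ndufb2 and Ndufb8, also below the filter, had 60 to 81 and 34 to 104 fragments.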
